A study of Mus musculus with 50 samples.

Results

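The effect of 20 Gy of focal radiation was measured in transplant sarcomas that all received an antibody against PD-1, by comparing 4 irradiated tumors with 4 unirradiated ones. These 8 libraries were taken by their sample labels from the 50 libraries of the series, of which 48 were tumors. The comparison covered the 19327 genes that passed the filter on low counts, and a gene was called where its adjusted p was under 0.05 (edgeR quasi-likelihood test, Benjamini-Hochberg over all genes tested). Fold changes are on the log2 scale, 20 Gy minus 0 Gy, and are followed by their standard error.

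The tumors were p53/MCA sarcomas. Cells of line 402230 (50000 per mouse) were injected in Matrigel into the gastrocnemius muscle of syngeneic 129/SvJae mice. The line came from 1 primary sarcoma raised in a p53FL/FL mouse, in which an adenovirus carrying Cre deleted Trp53 in the injected muscle before the carcinogen 3-methylcholanthrene (MCA) was given. Tumor cells of both groups thus shared that deletion, while the host cells in the tumors did not carry it. Every mouse received 200 µg of muDX400, a murine anti-PD-1 antibody. Directly afterwards the hind limb with the tumor received 0 Gy (n = 4) or 20 Gy (n = 4), and whole tumors were taken 3 days later. Host age and sex were not given in the labels. The transplants all grew from a single line, so spread between lines was not measured in them. The edgeR p-values and the standard errors rest on a spread estimated over the 48 tumor libraries together, primary tumors included. They are not the spread of the 8 tumors alone. Values from transplants given an isotype control antibody (4 at each dose) and from primary p53/MCA tumors given anti-PD-1 (8 at each dose) are set beside them.

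PD-1 is an inhibitory receptor on activated T cells, and its ligand PD-L1, encoded by Cd274, is induced by interferon. Ionizing radiation breaks DNA, which activates p53, and p53 drives the cell cycle inhibitor p21. DNA that reaches the cytosol can be sensed and lead to type I interferon, which acts through STAT proteins and IRF9 on interferon-stimulated response elements (ISRE) in promoters. The genes so induced encode antiviral proteins of the Ifit, Oas, Mx, Schlafen and PYHIN families. Cholesterol synthesis is run by another transcription factor, SREBP2, which binds sterol elements in the promoters of the pathway's enzymes.

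The genes that rose after radiation under anti-PD-1 included p53 targets such as Cdkn1a, antiviral genes of the interferon response such as Slfn4 and Irf7, and receptor genes such as C3ar1. Those that fell included 4 genes of cholesterol synthesis and uptake, among them Cyp51 and Srebf2. Of the genes tested, 0.595% were called, 0.538% higher and 0.0569% lower. In numbers, 84 genes rose by at least 2-fold and 20 by less, while 7 fell by at least 2-fold and 4 by less. The median log2 fold change was 1.76 among the genes that rose and 0.013 over all genes tested. In all 11 genes that fell, every irradiated tumor lay below every unirradiated one, and in 97 of the genes that rose every irradiated tumor lay above. Over all genes tested, 5.63% were separated upwards in this way and 3.24% downwards. The called genes were chosen on these same libraries, so their separation and their median are not independent of the call. Without adjustment, 2540 genes had a p under 0.05.

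Total counts of the 8 libraries ran from 36808039 to 54008259, so that 1 CPM, the unit of counts scaled to the effective library size, stood for at least 36.8 reads by total count. Genes at 1 CPM or more numbered 14029 ± 247 (SD, n = 4) at 0 Gy and 14204 ± 315 (n = 4) at 20 Gy, a difference that did not pass (exact two-sided permutation test, p = 0.4, where the smallest p of this design is 0.0286). The median correlation of a library with its group was 0.959 in 20 Gy replicate 2, 0.967 in 20 Gy replicate 4 and 0.977 in the other 6 libraries. Xist, the RNA of the inactive X in female cells, was at 0.421, 75.0, 0.207 and 0.127 CPM in the unirradiated tumors and at 70.8, 600.1, 0.901 and 95.4 CPM in the irradiated ones, so it was high in 1 and 3 tumors of the groups. With log2 Xist as a covariate, 44 genes were called, 43 higher and 1 lower. Calls lost in that fit are given beside the gene groups for some genes only. A call given without that fit may or may not have been kept in it.

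**Figure D1:**
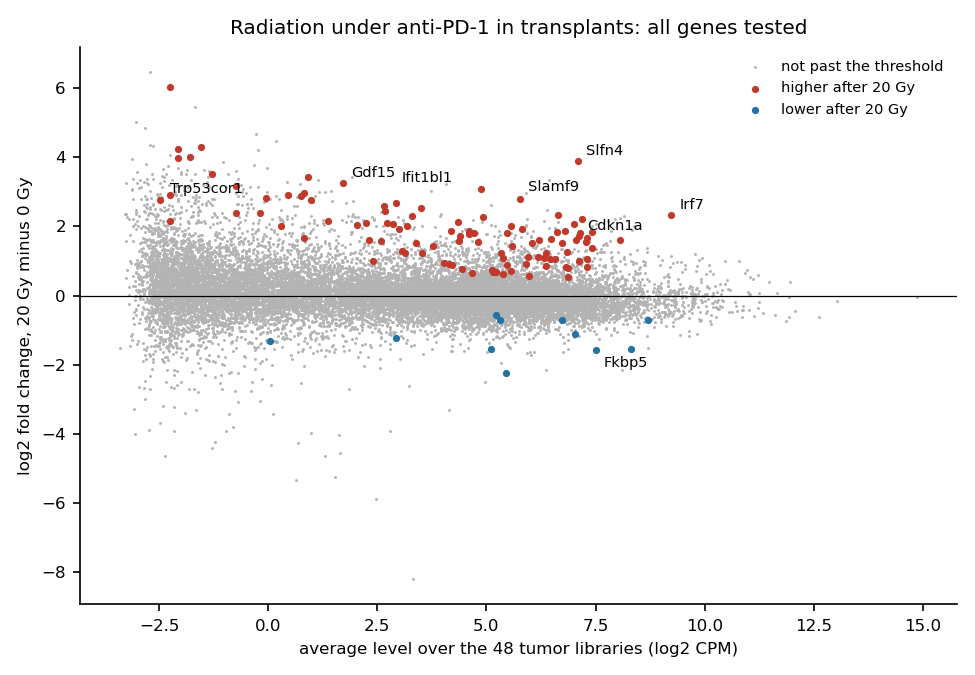
Log2 fold change (20 Gy minus 0 Gy, y axis) against the average level over the 48 tumor libraries (log2 CPM, x axis) for the 19327 genes tested in anti-PD-1-treated transplants. Red points are genes called higher (0.538%) and blue points the 11 called lower, and most called genes lie above zero.

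Several genes that rose had the letters of an ISRE-like motif (GAAANNGAA, searched on both strands) within the 250 bases before their start. These promoter sequences, from RefSeq on GRCm38.p6, are shown because the ISRE is the element to which the interferon-activated factors are known to bind, and because neighbouring genes of 1 family can be compared in them. Capitals mark the matches, and sequences run 5′ to 3′ on the strand of the gene.
Ifi206, chr1:173491319-173491398, minus strand: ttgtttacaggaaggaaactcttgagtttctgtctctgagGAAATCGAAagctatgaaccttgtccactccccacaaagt
Ifi213, chr1:173599297-173599385, minus strand: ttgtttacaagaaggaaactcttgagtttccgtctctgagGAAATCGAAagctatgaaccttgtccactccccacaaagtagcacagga
Ifi207, chr1:173741810-173741890, minus strand: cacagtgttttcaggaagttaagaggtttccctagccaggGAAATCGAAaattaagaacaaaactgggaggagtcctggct
Oas1g, chr5:120887614-120887671, minus strand: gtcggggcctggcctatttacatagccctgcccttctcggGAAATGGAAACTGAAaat
Phf11a, chr14:59297523-59297591, minus strand: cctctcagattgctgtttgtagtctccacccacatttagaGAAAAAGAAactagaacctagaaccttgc
Phf11b, chr14:59341332-59341420, minus strand: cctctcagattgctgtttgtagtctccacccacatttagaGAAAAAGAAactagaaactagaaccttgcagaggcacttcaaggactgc
Ifit1bl1, chr19:34602023-34602200, minus strand: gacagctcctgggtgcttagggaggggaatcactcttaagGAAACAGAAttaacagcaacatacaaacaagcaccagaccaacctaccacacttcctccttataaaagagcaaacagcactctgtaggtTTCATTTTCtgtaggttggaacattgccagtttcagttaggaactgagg
Trim30a, chr7:104465194-104465268, minus strand: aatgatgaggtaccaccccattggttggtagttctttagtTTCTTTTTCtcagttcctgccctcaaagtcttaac

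The windows of Ifi206 and Ifi213 differed at 2 of 80 bases and those of Phf11a and Phf11b at 1 of 69. In Oas1g, 2 overlapping matches lay from 18 to 4 bases before the start. The RefSeq start of Ifi206 was 277 bases from the start of the counted gene, and those of the other 7 genes at most 62 bases. A promoter was held for 74 of the genes that rose, and 20 of them (27.0%) had a match, beside 7.84% of the 13120 tested genes with a promoter. Of the 5 genes that fell and had a promoter, 0 had one. A GAS-like match (TTCNNNGAA) was found in 8 of the 74 (10.8%, beside 7.16% of all) and an NF-kB-like match (GGGANTTCC) in 3 (4.05%, beside 2.14%). These shares are descriptions and were not tested.

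Of the genes tied to p53, Cdkn1a, Gdf15 and Trp53cor1 rose, and they passed in 17, 18 and 18 of 19 alternative fits, the one with log2 Xist included. Cdkn1a, which encodes p21, was at 88.6, 41.8, 69.6 and 75.1 CPM in the 4 unirradiated tumors and at 211.9, 325.9, 198.6 and 175.5 CPM in the 4 irradiated ones. The groups did not overlap, and replicate 2 was the highest of the irradiated tumors (log2 fold change 1.73 ± 0.326, adjusted p = 0.00711). Gdf15, a secreted stress cytokine of the TGF-beta family, was low without radiation, at 0.160, 0.0715, 0.207 and 0.330 CPM, and at 1.64, 2.71, 1.73 and 1.31 CPM after it. Its groups were separated as well (log2 fold change 3.26 ± 0.585, adjusted p = 0.0057). Trp53cor1, the long noncoding RNA known as lincRNA-p21, lies at chr17:29057430-29079179 on the minus strand, upstream of Cdkn1a at chr17:29090976-29100727 on the plus strand. It was at 0.321, 0.197, 0.346 and 0.101 CPM without radiation and at 1.33, 2.90, 1.61 and 1.15 CPM with it. These groups did not overlap either (log2 fold change 2.84 ± 0.469, adjusted p = 0.003). Srsf3 (log2 fold change -0.18), Rab44 (0.16) and Cpne5 (-0.98), the other genes tested that start within 100000 bases of Cdkn1a, did not pass. Trp53cor1 and these neighbours were chosen after their values were seen.

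The promoter of Cdkn1a had 2 matches to the p53 half-site, from 73 to 42 bases before its start. It is shown, with the matches in capitals, because Cdkn1a is the best known target of p53.
Cdkn1a, chr17:29090866-29090977, plus strand: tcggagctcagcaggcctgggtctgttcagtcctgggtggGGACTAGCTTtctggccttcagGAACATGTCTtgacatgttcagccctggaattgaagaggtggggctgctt
Half-sites were found in 11 of the 74 promoters of genes that rose (14.9%) and in 7.45% of the promoters of all genes tested. Apart from Cdkn1a, these 11 genes are not on the list of p53 targets used here. Ifit2 and Trim30a, of the type I interferon list, are among them. These shares were not tested.

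Of 28 p53 targets tested, Cdkn1a and Gdf15 rose and 0 fell. The median of the list was 0.60, beside 0.013 over all genes, and 21 members were positive. Mdm2, which encodes the ubiquitin ligase that restrains p53, was at 53.9 to 66.7 CPM without radiation and 72.5 to 104.6 CPM with it. The groups did not overlap, and the difference did not pass (0.56, adjusted p = 0.0721). The same held for the test of the proapoptotic genes Bbc3 (1.0, adjusted p = 0.0523) and Bax (0.72, adjusted p = 0.0713). Ccng1, encoding cyclin G1, was at 214.6, 108.4, 116.5 and 110.7 CPM and 146.3, 549.1, 277.1 and 124.9 CPM. It overlapped between groups and was highest in 20 Gy replicate 2 (1.0, adjusted p = 0.376). The mean level of the list was also highest in that tumor, at 4.63, 5.21, 4.71 and 4.63 log2 CPM in the 4 irradiated tumors, and without it the median of the list was 0.34 with 2 members called. Genes of the tumor line, such as Hmga2, had their lowest mean level in 20 Gy replicate 2, at 5.52 log2 CPM (6.39 to 7.5 in the others). Macrophage markers had their highest there, at 8.59 log2 CPM (6.61 to 8.18 in the others). The part of cell content in the values of this tumor was not tested. Trp53 itself was at 25.7 to 45.8 CPM and 39.8 to 45.0 CPM (0.32, adjusted p = 0.633), a count over the whole gene that does not separate deleted from intact copies.

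**Figure D2:**
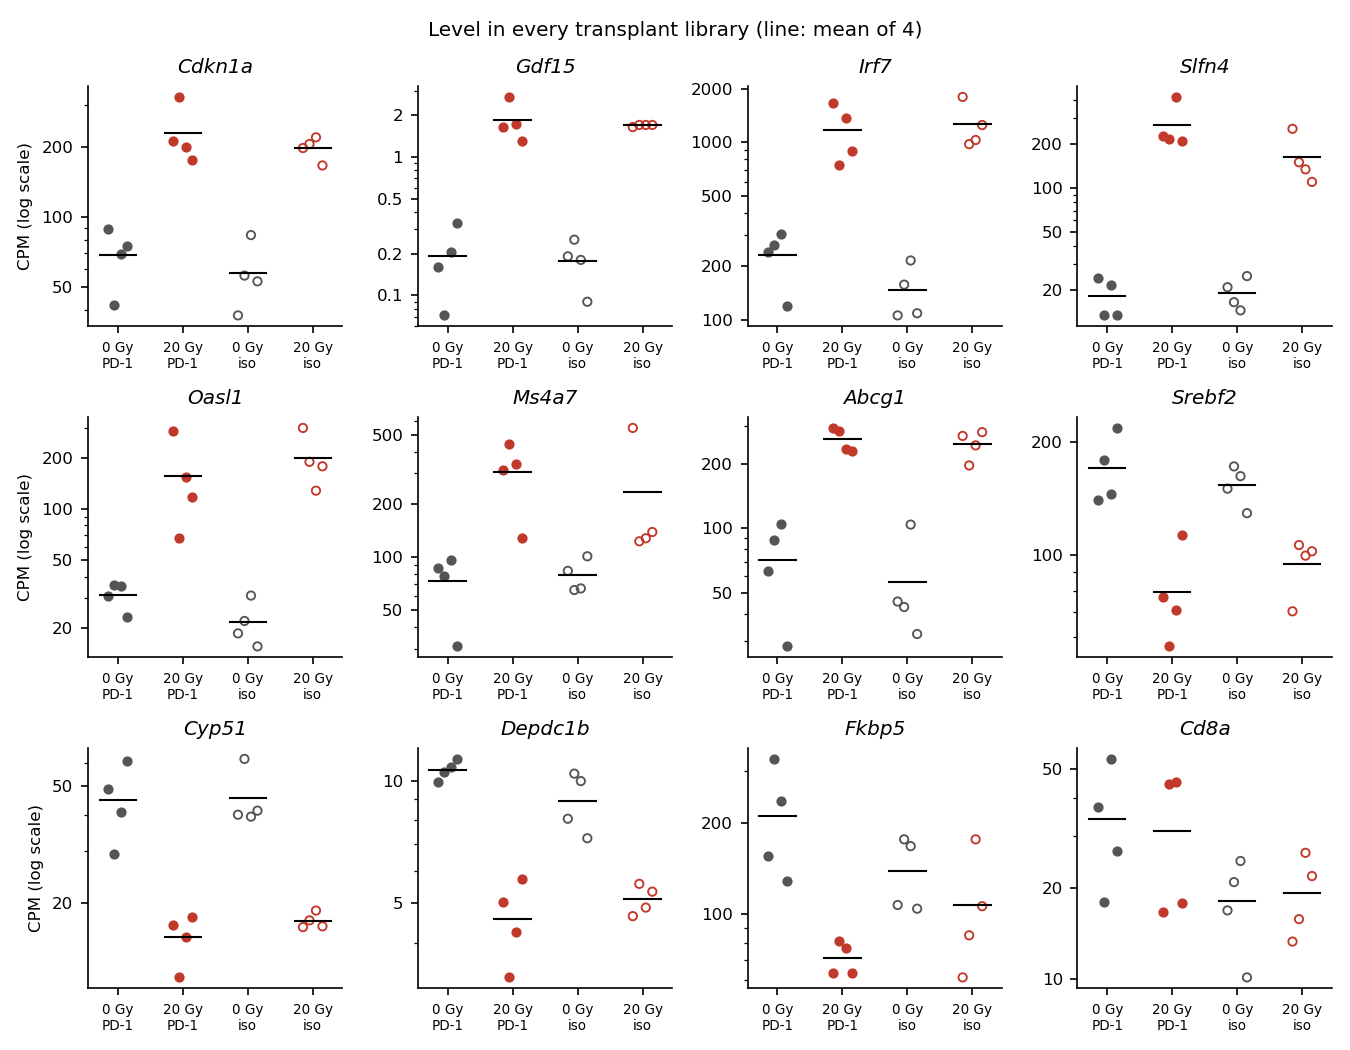
Level (CPM, log scale) of 12 genes in every transplant library, at 0 Gy (grey) and 20 Gy (red), with anti-PD-1 (filled) or isotype control (open), where lines are means of 4. In the 4 and 4 anti-PD-1 tumors the doses overlap for Cd8a and in none of the other panels.

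The interferon-stimulated genes had positive fold changes throughout, of which 6 passed. Irf7, the transcription factor that amplifies type I interferon, was at 240.7, 264.96, 305.4 and 119.5 CPM without radiation and at 1668.4, 746.1, 1370.2 and 898.5 CPM with it. Every irradiated tumor was more than 2-fold above every unirradiated one (log2 fold change 2.33 ± 0.552, adjusted p = 0.0405). Oasl1, of the oligoadenylate synthetase family, was at 30.7, 36.0, 35.2 and 23.2 CPM and 287.3, 67.1, 154.9 and 118.2 CPM (log2 fold change 2.33 ± 0.585, adjusted p = 0.0497). Oas2, which makes the messenger that activates RNase L, was at 24.6, 30.3, 28.7 and 9.59 CPM and 88.9, 90.0, 92.1 and 83.9 CPM (log2 fold change 1.93 ± 0.451, adjusted p = 0.0378). Neither gene overlapped between groups, and the lowest irradiated Oasl1 value was that of replicate 2.

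Of the 32 type I interferon-stimulated genes tested, 6 rose and 0 fell, and beside those above these included Ifit2 (1.85, adjusted p = 0.0448), which encodes an RNA-binding antiviral protein, Trim30a (1.53, adjusted p = 0.0366) and Herc6 (1.55, adjusted p = 0.0421), an ISG15 ligase. All 32 had a positive log2 fold change, with a median of 1.62 and a range of 0.34 to 2.48, and 26 were separated between the groups. Among those that did not pass, the antiviral genes Rsad2 (2.48, adjusted p = 0.0567) and Mx1 (2.21, adjusted p = 0.0713) came near the threshold. Isg15, an ubiquitin-like protein, was at 106.3, 96.4, 99.8 and 68.6 CPM and 831.6, 177.4, 500.2 and 231.3 CPM (2.23, adjusted p = 0.118), separated but widely spread among the irradiated tumors. With log2 Xist as a covariate the list had 0 calls, a median of 1.45 and 32 positive members, and Irf7 was at 2.12, adjusted p = 0.0692. The list had 0 calls when any 1 of 6 libraries was left out (0 Gy replicates 1, 2 and 4 and 20 Gy replicates 1, 2 and 3), 1 without 0 Gy replicate 3 and 9 without 20 Gy replicate 4, and its median was 1.44 to 1.83 throughout.

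Slfn4, a Schlafen gene of myeloid cells, had the largest change among called genes with an average log2 CPM of at least 2. It was at 24.2, 13.4, 21.5 and 13.4 CPM without radiation and at 226.9, 217.1, 419.8 and 210.4 CPM with it. All irradiated tumors were far above all unirradiated ones, and replicate 3 was the highest (log2 fold change 3.89 ± 0.971, adjusted p = 0.0482). Slfn2 (1.68, adjusted p = 0.0274) and Slfn8 (1.44, adjusted p = 0.00805) rose as well, and the 8 Schlafen genes listed were all positive, with a median of 1.36. Under the log2 Xist covariate Slfn8 was the 1 called, and Slfn4 was at 3.38, adjusted p = 0.0747. Ifit1bl1, a relative of the Ifit genes, was at 13.3, 7.02, 15.5 and 3.88 CPM and 92.7, 57.2, 135.7 and 54.4 CPM (log2 fold change 3.10 ± 0.641, adjusted p = 0.0169). Oas1g rose by 2.28 (adjusted p = 0.0429). Reads can be shared between near-identical members of the Ifit, Oas, Schlafen, PYHIN, Phf11 and Trim30 families, so the values of single members are uncertain.

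The PYHIN genes, whose products include sensors of DNA, lie together on chromosome 1. Of 14 tested, 4 rose: Ifi206, Ifi213, Ifi207 and Ifi203-ps. All were positive, with a median of 1.56. Ifi207 was at 26.8, 38.6, 41.2 and 20.7 CPM without radiation and at 76.2, 105.8, 78.3 and 102.04 CPM with it. It was separated between groups (log2 fold change 1.51 ± 0.256, adjusted p = 0.0032) and passed in 17 of 19 alternative fits. Ifi206 was at 1.96, 1.84, 2.93 and 0.938 CPM and 11.2, 6.23, 15.4 and 13.7 CPM (log2 fold change 2.60 ± 0.638, adjusted p = 0.0448). The calls of Ifi206 (2.50, adjusted p = 0.0723), Phf11a, Trim30a and Oas1g were lost with log2 Xist as a covariate. Trim30a and Trim30c on chromosome 7 rose, 2 of 4 Trim30 genes tested, as did Phf11a (2.29, adjusted p = 0.0424) and Phf11b on chromosome 14, 2 of 4 Phf11 genes. The families were grouped after their values were seen.

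The lists of interferons with their receptors and of cytosolic nucleic acid sensing had no call. Ifnb1, which encodes interferon beta, was at 0.0802, 0.0715, 0.0461 and 0.152 CPM without radiation and at 1.59, 0.290, 1.05 and 0.209 CPM with it. The groups did not overlap, at levels near the limit of detection (log2 fold change 3.13 ± 0.976, adjusted p = 0.11). Ifng, which encodes interferon gamma, was at 1.0 to 3.85 CPM and 2.10 to 5.33 CPM and overlapped (0.41, adjusted p = 0.911). Of 16 genes of cytosolic nucleic acid sensing, none was called and 15 were positive, with a median of 0.96, and the nucleic acid sensor genes Ifi204 (1.11, adjusted p = 0.0605) and Zbp1 (1.28, adjusted p = 0.188) were among them. Outside the lists, Myd88, the adaptor of most Toll-like receptors, rose (0.87, adjusted p = 0.025), as did Tlr6 (1.29, adjusted p = 0.0438) and Ikbke (1.24, adjusted p = 0.0494), a kinase that acts on IRF3 and IRF7. These 3 were chosen after their values were seen.

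Genes tied to interferon gamma and antigen presentation had smaller differences and no calls. The 20 interferon-gamma-inducible GTPases and Irf1 were all positive, with a median of 0.83. Gbp2 was at 456.8, 327.6, 574.1 and 360.2 CPM without radiation and at 693.3, 241.8, 600.96 and 842.5 CPM with it. It overlapped, and the lowest of the 8 tumors was 20 Gy replicate 2 (0.47, adjusted p = 0.736). The 21 genes of MHC class I presentation had a median of 0.53, with H2-K1 at 0.65, adjusted p = 0.583 and B2m at 0.48, adjusted p = 0.631, and the 11 class II genes one of 0.55. Cd274 was at 79.4, 20.8, 82.1 and 44.9 CPM and 111.4, 107.6, 160.04 and 162.99 CPM. The irradiated tumors were all above the unirradiated ones, and the difference did not pass (log2 fold change 1.25 ± 0.527, adjusted p = 0.277).

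**Figure D3:**
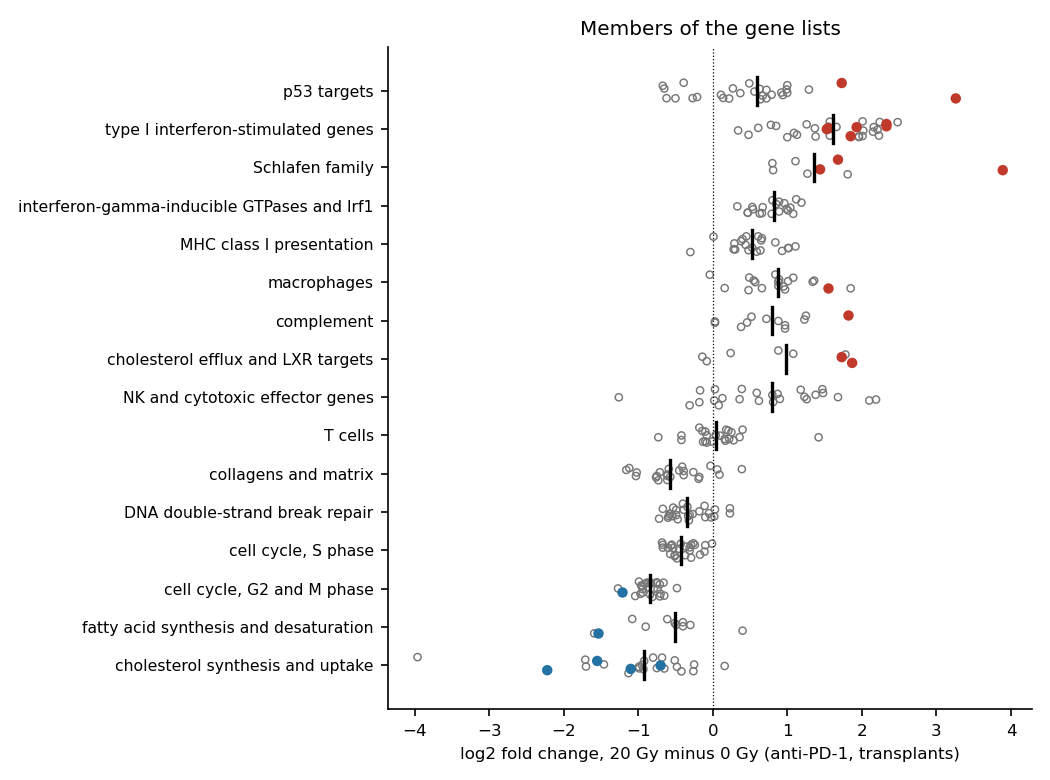
Log2 fold change (20 Gy minus 0 Gy, anti-PD-1 transplants, x axis) of each tested member of 16 gene lists, with called members filled and the list median as a bar. The type I interferon list has its median at 1.62 and no member below zero, and the cholesterol synthesis list has its median at -0.92 with 1 member above zero.

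T cell genes showed no difference that passed. Of 23, none was called, 12 were positive and the median was 0.04, or -0.2 to 0.3 when 1 library was left out. Cd8a, a chain of the CD8 co-receptor, was at 37.4, 18, 54.1 and 26.7 CPM without radiation and at 16.7, 44.7, 45.3 and 17.9 CPM with it. The groups overlapped throughout (log2 fold change -0.13 ± 0.834, adjusted p = 0.975), and at this error a 2-fold change in either direction was not detectable. Pdcd1, which encodes PD-1, was at -0.80, adjusted p = 0.737. Of 25 genes of NK cells and cytotoxic effectors none was called, with a median of 0.80. Gzmb, a granule protease, was at 144.2, 37.0, 133.5 and 73.4 CPM and 246.5, 145.9, 393.2 and 224.5 CPM. Its groups were separated by a narrow margin (1.38, adjusted p = 0.445), and those of Gzma were separated too, at 11.7 to 23 CPM and 52.9 to 119.7 CPM (2.19, adjusted p = 0.267). In whole tumors, fewer cells of a type and less RNA per cell cannot be told apart.

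Receptor genes known from immune cells were among those with the largest rises, while the lists of myeloid cells had few calls. Slamf9, a receptor of the SLAM family, was at 27.6, 39.6, 23.4 and 9.59 CPM without radiation and at 249.4, 189.1, 160.4 and 98.1 CPM with it (log2 fold change 2.80 ± 0.631, adjusted p = 0.0321). Cd72, a C-type lectin known from B cells, was at 74.2, 151.1, 88.5 and 31.3 CPM and 559.2, 403.8, 332.3 and 304.8 CPM (log2 fold change 2.21 ± 0.527, adjusted p = 0.0414). Fpr1, the formyl peptide receptor of neutrophils and macrophages, was at 9.60, 5.86, 6.22 and 2.16 CPM and 35.1, 57.8, 27.1 and 17.2 CPM (log2 fold change 2.52 ± 0.611, adjusted p = 0.0438). The groups did not overlap in these 3 genes, and 0 Gy replicate 4 was the lowest library in each. The adaptor gene Stap1 (2.45, adjusted p = 0.0414) and the predicted gene Gm6545 (2.67, adjusted p = 0.0497) complete the 12 genes with the largest rises at that level. With log2 Xist as a covariate none of these 5 genes passed, with Slamf9 at 2.71, adjusted p = 0.0524 and Fpr1 at 2.47, adjusted p = 0.0709.

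C3ar1, the receptor for the complement fragment C3a, was at 69.2, 108.5, 97.9 and 37.0 CPM without radiation and at 295.3, 375.1, 205.3 and 219.8 CPM with it. The groups did not overlap (log2 fold change 1.81 ± 0.35, adjusted p = 0.00805), and it was the 1 call among 12 complement genes, whose median was 0.80. It passed with log2 Xist as a covariate too (1.84, adjusted p = 0.0144). Ms4a7 (2.07, adjusted p = 0.0335), Ms4a14 (2.02, adjusted p = 0.0165) and Ms4a6c (1.6, adjusted p = 0.0421) rose, 3 of 13 genes of the Ms4a cluster on chromosome 19. Spi1, which encodes the myeloid transcription factor PU.1, rose (1.27, adjusted p = 0.0335), and so did Csf2ra (1.09, adjusted p = 0.0497), a chain of the GM-CSF receptor. The Ms4a genes, Spi1 and Csf2ra were chosen after their values were seen.

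Of 19 macrophage markers, Fcgr1, the high-affinity IgG receptor, was the 1 called. It was at 148.8, 103.9, 143.5 and 60.2 CPM without radiation and at 331.3, 339.03, 404.2 and 258.4 CPM with it (log2 fold change 1.55 ± 0.39, adjusted p = 0.0497). The groups did not overlap, and the call was lost with log2 Xist as a covariate (1.57, adjusted p = 0.0709). The median of the markers was 0.88 and 18 were positive, no marker was at 0 in any of the 8 libraries, and their summed level overlapped, at 3121.7 to 6798.3 CPM and 5623.2 to 13699.97 CPM. Lyz2, lysozyme, was at 465.1 to 2016.4 CPM and 901.5 to 4043.1 CPM (1.01, adjusted p = 0.352), and C1qa was at 0.97, adjusted p = 0.235. Of 19 genes of neutrophils and CXCR2 ligands, Fpr1 was the 1 called. Their summed level was 180.7 to 1319.2 CPM at 0 Gy, highest in replicate 3, and 371.1 to 610.1 CPM at 20 Gy. The median of -0.14 became 0.96 without 0 Gy replicate 3 and 0.05 without 20 Gy replicate 1, and was -0.44 to -0.05 without any other library, so it has no stable sign. The part of cell number in these rises was not tested.

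**Figure D4:**
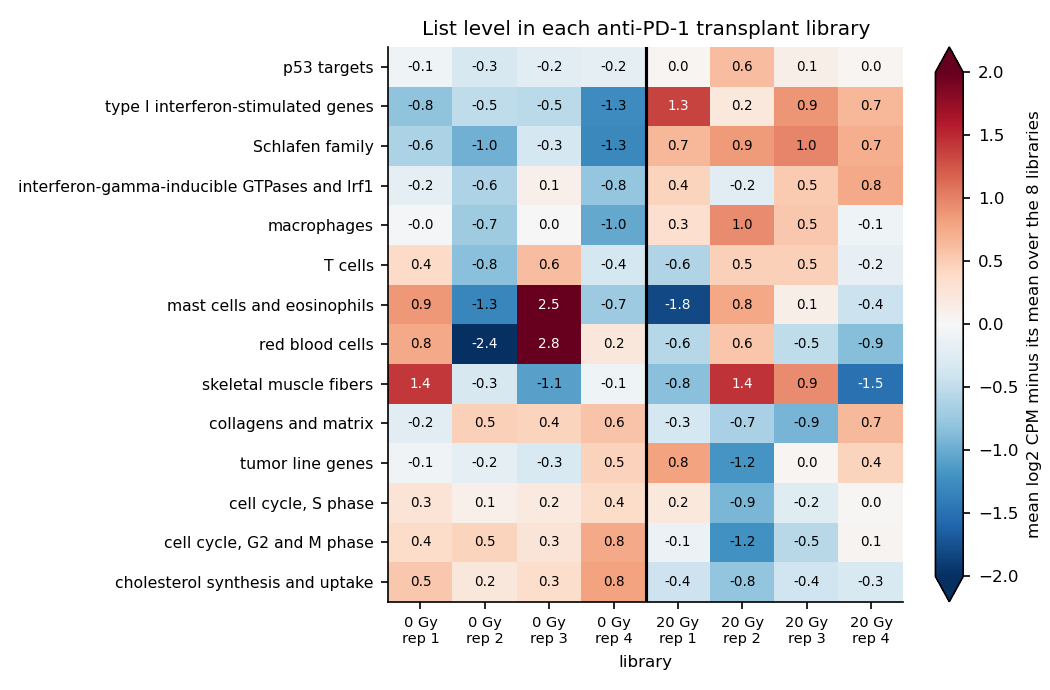
Mean log2 CPM of 14 gene lists in each of the 8 anti-PD-1 transplant libraries (columns, 4 at 0 Gy and 4 at 20 Gy), minus the mean of the list over the 8. The type I interferon, Schlafen, p53 target, cholesterol and G2 and M phase lists separate the groups. The other lists overlap between them, the interferon-gamma list, T cells, red blood cells and muscle fibers included.

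Among genes of cholesterol synthesis and uptake, 4 fell. Cyp51, the lanosterol demethylase, was at 49.0, 29.4, 41.0 and 60.7 CPM without radiation and at 16.9, 11.2, 15.4 and 18 CPM with it. Among the irradiated tumors, replicate 2 was the lowest (log2 fold change -1.55 ± 0.359, adjusted p = 0.036). Srebf2, which encodes SREBP2, was at 139.98, 178.7, 145.5 and 217.6 CPM and 76.8, 56.8, 71.1 and 113.2 CPM (log2 fold change -1.10 ± 0.278, adjusted p = 0.0497). Both were separated between the groups. Stard4, a carrier of cholesterol between membranes, was at 36.5 to 50.0 CPM and 21.9 to 32.1 CPM (log2 fold change -0.70 ± 0.163, adjusted p = 0.0377).

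The promoter of Srebf2 held a sterol element (ATCACCCCA, in capitals) from 163 to 155 bases before its start, and it is shown because this is the element that SREBP2 is known to bind. The letters occurred in 0.213% of the promoters of genes tested. Srebf2 was the 1 match among the 5 genes that fell and had a promoter.
Srebf2, chr15:82147066-82147154, plus strand: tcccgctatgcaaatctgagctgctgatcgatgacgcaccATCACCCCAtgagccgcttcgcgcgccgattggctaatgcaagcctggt

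Of the 24 genes of cholesterol synthesis and uptake, 4 fell and 0 rose. The median was -0.92, 23 were negative, and in 16 every irradiated tumor lay below every unirradiated one. The summed level of the list was 824.5 to 1241.9 CPM at 0 Gy and 406.4 to 600.7 CPM at 20 Gy, without overlap. Under the log2 Xist covariate Cyp51 was the 1 called (median -0.91). With the series of the mouse numbers (their first 3 digits in the sample titles) as a factor, 0 were called (median -0.83), and of all genes tested 31 were called higher and 0 lower. The 4 calls were lost without 0 Gy replicates 1 or 4 or 20 Gy replicates 1, 2 or 3, there were 2 without 0 Gy replicate 2, 1 without 0 Gy replicate 3 and 7 without 20 Gy replicate 4, and the median was -1.0 to -0.73 throughout.

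Of 8 genes of cholesterol efflux and LXR targets, 2 rose. Abcg1, an exporter of cholesterol, was at 63.2, 88.0, 104.9 and 28.2 CPM without radiation and at 293.1, 283.04, 233.6 and 228.2 CPM with it. The irradiated tumors lay close together and above all others (log2 fold change 1.87 ± 0.403, adjusted p = 0.0234). Nr1h3, which encodes the sterol sensor LXR alpha, was at 34.8, 9.13, 27.2 and 9.66 CPM and 82.4, 56.6, 91.6 and 36.7 CPM (log2 fold change 1.73 ± 0.419, adjusted p = 0.0438). Abca1 (0.88, adjusted p = 0.252) and Apoe (1.08, adjusted p = 0.408) did not pass. Under the log2 Xist covariate Abcg1 passed (1.94, adjusted p = 0.0362) and Nr1h3 did not (1.76, adjusted p = 0.0601). Of 11 genes of fatty acid synthesis and desaturation, the desaturase Scd2 fell, from 218.4 to 668.3 CPM to 87.7 to 213.3 CPM (log2 fold change -1.54 ± 0.378, adjusted p = 0.0448), and the median was -0.51 (-0.81 without 20 Gy replicate 4). In the same tumors the median was 0.88 for macrophage markers and -0.84 for genes of the G2 and M phases, and their part in the changes of lipid genes was not tested.

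Genes of proliferation had negative fold changes, with 1 call. Depdc1b, a gene of mitosis, was at 9.92, 10.5, 10.8 and 11.3 CPM without radiation and at 5.04, 3.29, 4.24 and 5.72 CPM with it. The unirradiated values lay within a narrow range above the others (log2 fold change -1.22 ± 0.309, adjusted p = 0.0497). The 27 genes of the G2 and M phases were all negative, with a median of -0.84, and 14 were separated between the groups. Mki67, the proliferation marker Ki-67, was at 115.9, 186.1, 168.7 and 279.6 CPM and 78.2, 54.4, 75.7 and 170.1 CPM (-0.99, adjusted p = 0.183). None of the 25 S phase genes was called, and all were negative (median -0.43). The mean level of the G2 and M genes was 5.87, 5.95, 5.75 and 6.26 log2 CPM in the unirradiated tumors and 5.38, 4.28, 4.95 and 5.55 in the irradiated ones. Without 20 Gy replicate 2, the lowest, the medians were -0.61 for G2 and M phase and -0.20 for S phase.

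Fkbp5, a co-chaperone of the glucocorticoid receptor and a target of it, was at 155.8, 328.5, 236.7 and 128.6 CPM without radiation and at 63.6, 81.0, 77.0 and 63.6 CPM with it. Every irradiated tumor lay below every unirradiated one (log2 fold change -1.57 ± 0.395, adjusted p = 0.0495). Mlec (-0.69, adjusted p = 0.0438) and Txndc11 (-0.57, adjusted p = 0.0414), which encode proteins of the endoplasmic reticulum, and Ptov1 (-0.70, adjusted p = 0.0497) fell by less and were separated as well. With log2 Xist as a covariate Fkbp5 was at -1.57, adjusted p = 0.0723, and Scd2, Depdc1b, Mlec, Txndc11 and Ptov1 did not pass either.

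Other lists had no call. Of 24 genes of collagens and matrix 21 were negative, with a median of -0.58 that became -0.32 without 20 Gy replicate 3 and -0.95 without 20 Gy replicate 4. Col1a1 was at 1757.6, 3249.1, 3769.97 and 3021.3 CPM and 924.1, 1583.6, 905.3 and 5217.9 CPM, with overlap (-0.45, adjusted p = 0.857). Of 15 hypoxia genes 13 were negative (median -0.64, or -0.41 without 0 Gy replicate 4), and the 27 genes of double-strand break repair had a median of -0.34. Of 17 cytokines of the IL-1, IL-6 and TNF families 15 were positive (median 1.18), and Il1rn, the antagonist of the IL-1 receptor, was at 1.27, adjusted p = 0.168. Of 21 chemokines 20 were positive (median 0.87). Cxcl10 was at 286.3, 256.97, 367.4 and 273.9 CPM and 1266.01, 170.2, 699.1 and 814.4 CPM, and the lowest of all 8 was 20 Gy replicate 2 (1.32, adjusted p = 0.38). Skeletal muscle fiber genes, from the tissue around the tumors, summed to 2921.4 to 19076.01 CPM at 0 Gy and 2172.1 to 17021.2 CPM at 20 Gy (median 0.14, or -0.32 to 0.85 when 1 library was left out).

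The same dose in transplants given the isotype control, a comparison that shares no library with this one, called 1.92% of genes, 352 higher and 20 lower. Both comparisons used the same estimate of the spread. All unirradiated isotype tumors shared a mouse number series, and most irradiated ones had another. Dose and series are therefore hard to tell apart in that comparison. Of the genes called under anti-PD-1, 80 were called there too, or 69.6% of these and 21.5% of those, all in the same direction, and every gene called under anti-PD-1 had the same sign under isotype. Cdkn1a had a log2 fold change of 1.73 under anti-PD-1 and 1.77 under isotype, Gdf15 of 3.26 and 3.22, and Irf7 of 2.33 and 3.10. The type I interferon list had a median of 1.62 with 6 calls under anti-PD-1, and one of 2.12 with 30 calls under isotype. Irf7 averaged 232.7 ± 80.0 CPM (SD, n = 4) without radiation under anti-PD-1 and 147.2 ± 51.6 CPM (n = 4) under isotype, and 1170.8 ± 425.01 CPM and 1263.95 ± 376.4 CPM after it. The cholesterol list had medians of -0.92 and -0.73, and the G2 and M list of -0.84 and -0.44.

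The test of the difference between these effects found no gene past the threshold (0.0%, edgeR interaction), with 251 genes at an unadjusted p under 0.05 and 0 calls by DESeq2 and limma voom. The difference was -0.77 ± 0.745 for Irf7, -0.04 ± 0.448 for Cdkn1a and -0.16 ± 0.496 for Cyp51. The median standard error was 0.505 for this difference and 0.358 for the effect under anti-PD-1 itself, on the log2 scale, so differences that did not pass are not shown to be absent. Fkbp5 fell under anti-PD-1 and averaged 139.1 ± 38.9 and 107.4 ± 50.1 CPM in the isotype groups (-0.37, adjusted p = 0.804), a difference of -1.20 ± 0.547 that did not pass (adjusted p = 1). The smallest p belonged to Gm25291, Gm15536 and Gm8121, with differences of 2.88, 4.40 and 2.37.

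In primary tumors given anti-PD-1, 8 irradiated against 8 not, 11.2% of genes were called, 1530 higher and 628 lower. Of the genes called in the transplants, 93 were called there as well (80.9% of these and 4.31% of those), all in the same direction, and 2 had the opposite sign. Cdkn1a was at 2.44 in primary tumors (adjusted p = 4.96e-09), Irf7 at 2.17 (0.000276) and Cyp51 at -1.45 (0.000224). The type I interferon list had a median of 1.63 there with 32 calls, and the cholesterol list one of -0.89 with 18 lower. Slamf9 was at 0.86 (adjusted p = 0.182), Stap1 at 0.11 (0.903) and Fkbp5 at 0.11 (0.854) in the primary tumors. The differences between models were 1.94, 2.34 and -1.68, and none passed (adjusted p = 0.909, 0.813 and 0.813). In neither other comparison were 13 of the genes called, among them Fkbp5, Txndc11, Ms4a7, Dok3, Arrb2 and Milr1, and the test of a difference in effect (edgeR) passed for none of them in either comparison.

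No gene passed the test of a difference in the radiation effect between transplant and primary tumors under anti-PD-1 (0.0%, edgeR interaction, smallest adjusted p = 0.295), while 920 had an unadjusted p under 0.05, DESeq2 called 2 and limma voom 0. The smallest p belonged to Car4, a carbonic anhydrase (-5.98), Rem2, a small GTPase (-3.28), and Ltc4s, the leukotriene C4 synthase (2.34). Ltc4s was at 1.80, 1.07, 1.77 and 1.72 CPM without radiation and at 2.44, 8.07, 3.82 and 2.43 CPM with it in the transplants, and averaged 15.5 and 8.04 CPM in the primary tumors. Genes of skeletal muscle fibers and of regenerating muscle had medians of 0.14 and 0.29 in the transplants and of 2.76 and 3.54 in the primary tumors. In the primary tumors, 1 of the 16 fiber genes and 8 of the 12 genes of regenerating muscle were called higher. The difference between models passed for none of them, and the part of muscle tissue around the tumors was not tested.

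**Figure D5:**
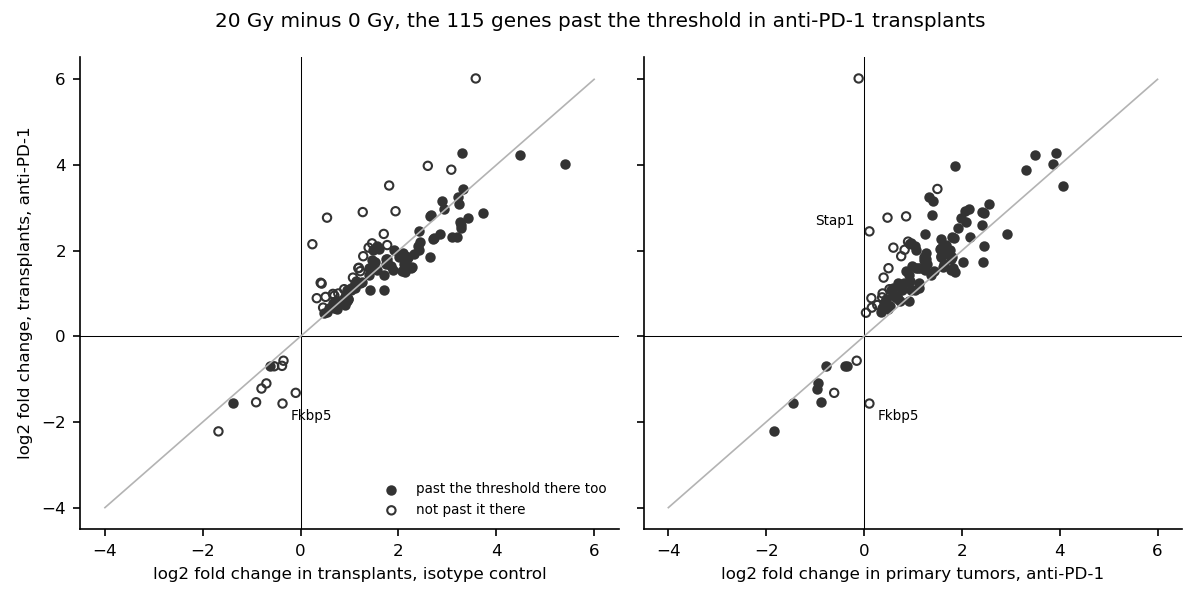
Log2 fold change after 20 Gy in anti-PD-1-treated transplants (y axis) against that in isotype-treated transplants (left) and in anti-PD-1-treated primary tumors (right), for the genes called in the former. Filled points also passed in the other comparison (80 on the left, 93 on the right), the grey line marks equal change, and the genes were chosen on the y axis.

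How many genes were called depended on single tumors. Leaving out 0 Gy replicates 1 to 4 in turn gave 18, 27, 80 and 3 calls, and leaving out 20 Gy replicates 1 to 4 gave 44, 21, 24 and 246. A model of the 8 libraries alone called Slfn4 (adjusted p = 0.0106), with 69 of the genes called above at an adjusted p under 0.1. Of 39 genes followed through the alternatives, 22 to 33 no longer passed when any 1 of 7 libraries was left out, and 2 without 20 Gy replicate 4. The 39 also hold genes that were not called above and so had no call to lose. These counts therefore understate the share of calls lost. The sign of every called gene was kept in each of the 19 alternative fits that tested it. Gdf15, Trp53cor1 and A330040F15Rik, an unnamed transcript (3.16, adjusted p = 0.003), passed in every alternative but the model of 8 libraries.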

How the data were processed

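RNA-seq of whole tumors was used. Raw counts per gene were deposited by the authors, made by trimming with Trimmomatic 0.36, alignment to mm10 with STAR and HTSeq-style counting on GENCODE M17 from a stranded kit. The strand setting of the counting is not given in the sources used here, so overlapping and antisense genes are uncertain. Symbols came from a GENCODE annotation (37408 of 37469 genes matched). Counts were filtered with filterByExpr, scaled by TMM and fitted with edgeR 4.0.16 (R 4.3.3, quasi-likelihood F-test) over 48 tumor libraries in 8 groups, which share 1 estimate of the spread. Each effect was a contrast, with Benjamini-Hochberg adjustment at 0.05, and 115 genes were called, 104 higher and 11 lower. Alternatives used DESeq2 1.42.0 (an adjusted p it did not give stayed missing), limma 3.58.1 and other filters, scalings, covariates and sets of libraries, and the Xist covariate was chosen after seeing the data. No 2 replicates of a group were alike within counting noise (chi-square per degree of freedom at least 105). The fit was tested on simulated counts of the same genes. It recovered 2 of 100 changes of 1 log2 unit and 50 of 100 changes of 2 log2 units. Of its 54 calls, 2 were false. Most changes of 2-fold would thus be missed.

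Genes named are the 12 with the largest rise and up to 12 with the largest fall among called genes whose groups did not overlap and whose mean level was 2 log2 CPM or more, called members and the 3 highest of each of 51 lists, the 3 with the smallest p of each interaction, and Trp53, Cd274, Pdcd1, Cd8a, Ifng, Cdkn1a and sex-linked genes. Some genes that this rule names are not reported here. Other names, list members included, were chosen after their values were seen. The members and lists were chosen with earlier results of these data known. Promoters came from a RefSeq table on GRCm38.p6. Exome and single-cell data and estimates of cell composition were not analysed here.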

Additional observations from a re-analysis of the deposited data

Results flagged for a closer look

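In 5 of 156 checks of 4 libraries, the highest or lowest stood far from the other 3, where chance gives about 1 in 20. Slfn4 was at 419.8 CPM in 20 Gy replicate 3, against 210.4 to 226.9 CPM in the other irradiated tumors. The p53 targets had a mean level of 5.21 log2 CPM in 20 Gy replicate 2, against 4.63 to 4.71 in the others of that group. Among unirradiated tumors, the histone genes had a mean level of 3.3 log2 CPM in replicate 1 (3.02 to 3.06 in the others), collagen and matrix genes one of 8.56 in replicate 1 (9.21 to 9.33) and genes of peripheral nerve one of 2.95 in replicate 4 (2.24 to 2.32).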

How the results depend on the processing

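The number of genes called for radiation under anti-PD-1 moved with the processing. The direction of every called gene did not, in the fits that tested it. The number is given here for each alternative. It was 643 with the 16 transplant libraries alone, 479 by DESeq2, 327 by limma voom, 223 with the muscle genes as a covariate and 211 with a filter of 1 CPM in 4 libraries. It was 75 with library totals for scaling, 44 with log2 Xist as a covariate (43 higher, 1 lower), 31 with the series of the mouse numbers as a factor (31 higher, 0 lower), 30 with no count filter and 1 with the 8 libraries alone. Leaving out 1 library gave 3 (without 0 Gy replicate 4) to 246 (without 20 Gy replicate 4). The cause of these moves was not tested. The interaction with the antibody had 0 calls in every alternative, and that with the tumor model had 2 by DESeq2 and 0 otherwise. Cd8a, at -0.13, was at 0.17 with log2 Xist as a covariate, and leaving out 1 library gave -0.36 to 0.19. The median of the peripheral nerve list moved from 0.10 to -0.21 among members with an average log2 CPM of at least 0. The groups were compared unpaired, because each tumor came from a different mouse. With 4 tumors a group, the median standard error of a fold change was 0.358 on the log2 scale, and a change that did not pass is not shown to be absent.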

Other observations

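The lists given here had no called gene, except the senescence-associated secretory genes. Dendritic cell genes had a median log2 fold change of 0.55 (12 of 14 positive), and B and plasma cell genes one of 0.39 (8 of 12). Without 20 Gy replicate 2 these medians were 0.0 and 0.03, without 0 Gy replicate 4 they were 0.28 and 0.10, and the B and plasma cell median was 0.13 without 0 Gy replicate 2 and 0.75 without 0 Gy replicate 1. Endothelial genes had a median of 0.17, with Pecam1 at 0.32, adjusted p = 0.801. Checkpoint receptors and ligands had a median of 0.30, and Vsir, which encodes the checkpoint protein VISTA, was at 100.2 to 201.5 CPM without radiation and 213.6 to 313.96 CPM with it (0.68, adjusted p = 0.342, edgeR). Its groups did not overlap. Markers of mast cells and eosinophils had a median of -1.24 and summed to 28.1 to 473.1 CPM at 0 Gy and 15.3 to 118.8 CPM at 20 Gy, and hemoglobin and other red blood cell genes had one of -1.29, at 25.3 to 1127.2 CPM and 99.4 to 401.4 CPM. Without 0 Gy replicate 3 these medians were -0.40 and -0.52. Genes of the TGF-beta pathway had a median of -0.31, and NRF2 targets one of -0.48. Senescence-associated secretory genes had a median of 0.29 with 2 called, Cdkn1a and Gdf15. When 1 library was left out, the medians of the endothelial, checkpoint, TGF-beta, NRF2 and senescence lists were 0.09 to 0.28, 0.16 to 0.52, -0.49 to -0.17, -0.58 to -0.24 and 0.08 to 0.58.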
